A study of Homo sapiens with 8 samples.

Results

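Complex I genes were taken as the genes with an NDUF symbol on Affymetrix U133 Plus 2.0 arrays of resting and dividing lymphoma cells. Probe sets listed for exactly 1 gene whose symbol begins with NDUF were collected, and each gene was represented by the probe set with the highest mean log2 intensity over the 8 arrays. This gave 44 genes of 19775 with such a probe set, measured by 82 of 54675 probe sets. By the roles their products are known for, 5 are core subunits, 28 are accessory subunits, 8 are assembly factors and 3 are noncoding RNAs named after a neighbouring subunit gene. All 44 passed the filter on low values, a mean log2 intensity equal to or above the median probe set, which stands at an intensity of 83.3. The subunit genes NDUFS8, NDUFC2 and NDUFS5 share their probe sets with other listed genes and are not analysed here. NDUFA4 and NDUFA4L2 are listed as COXFA4 and COXFA4L2. They are therefore no members and are given as neighbours.

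The cells are RL (ATCC CRL-2261), an established line from a human B cell lymphoma with the genotype t(14,18)+, the exchange that places BCL2 under immunoglobulin control. Quiescent cells (pyronin Y dull, 4 arrays) and cycling cells (pyronin Y bright, 4 arrays) were sorted from multicellular aggregates, called MALC, cultured for 14 days. Both groups share the line, the aggregate culture, the stain and the sort. All samples come from 1 cell line. Pyronin Y stains RNA, so the sort itself chose cells by RNA content, and the labels name no separate measure of division. Nor do they tell if each sample had a culture of its own, and the p-values cover the spread among these samples alone, and that spread may be technical.

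Complex I, or NADH dehydrogenase, is the first and largest enzyme of the mitochondrial respiratory chain. Its matrix arm takes electrons from NADH through a flavin and a row of iron-sulfur clusters (the N module) and hands them to ubiquinone (the Q module), and its membrane arm pumps protons. Core subunits are shared with bacteria, and some of them carry the flavin and the iron-sulfur clusters. Accessory subunits surround and stabilise the core, and assembly factors help to build the enzyme but are not part of it. The membrane core is encoded by mitochondrial DNA, and every gene counted as a member here is nuclear.

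Complex I transcripts that differed were lower in quiescent cells. Of the 44 genes, 22 were lower and 0 were higher at an adjusted p under 0.05 (limma, Benjamini-Hochberg over 11678 genes), whereas 15.4% of all genes tested were called lower and 12.2% higher. At mean intensities of 1000 to 4000 and of 4000 and more, where most coding members lie, 24.7% and 28.5% of all genes were called lower. At an unadjusted p under 0.05, 0 of the 44 were higher too. Of the 33 subunits 19 fell, 3 of 5 core and 16 of 28 accessory, and of the 8 assembly factors 3 fell. The median log2 difference, quiescent minus cycling, was -0.55 for subunits and -0.31 for assembly factors, beside 0.08 for all genes tested. All quiescent arrays lay below all cycling arrays for 17 subunits and for 3 assembly factors, as they did for 15.4% of all genes. Values are MAS5 intensities that the authors scaled to the same average on each array. A lower value is thus a smaller share of the array's signal, and fewer cells that express a gene and less of its RNA per cell cannot be told apart.

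**Figure D1:**
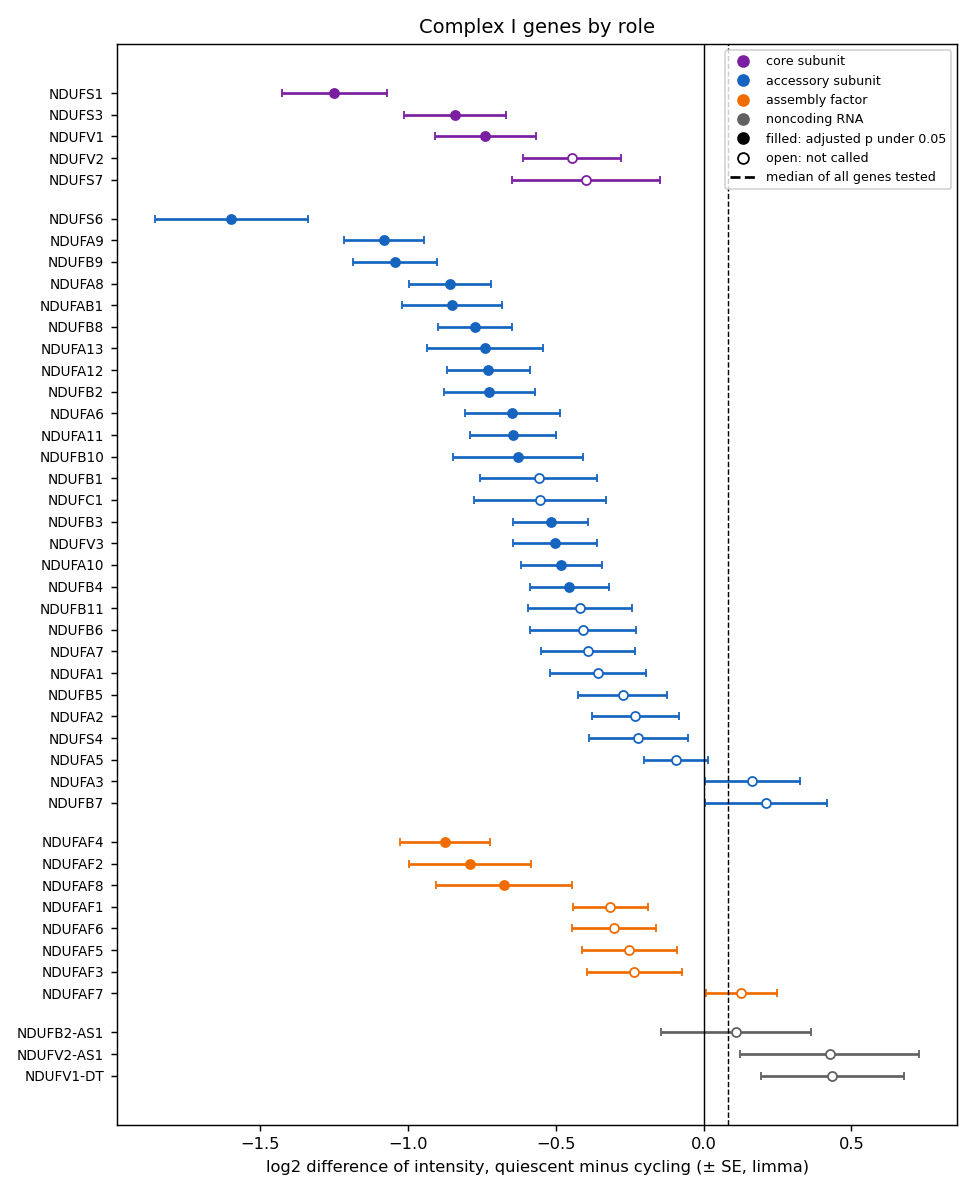
Log2 difference of intensity (quiescent minus cycling, horizontal axis, ± SE from limma, n = 4 arrays each) for the 44 complex I genes, grouped by role. Filled points were called at an adjusted p under 0.05. All 22 called genes lie left of 0, and the dashed line marks the median of all genes tested, 0.08.

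The sorted groups and the arrays were checked against their labels. The proliferation markers MKI67, TOP2A and CCNB1 summed to intensities of 1508 to 3420 on quiescent arrays, against 11061 to 13800 on cycling arrays, values that do not overlap. B cell markers (5 of 6 with a probe set) summed to 51025 to 62458 on quiescent and 51250 to 61831 on cycling arrays. Markers of T cells, NK cells, monocytes, fibroblasts and endothelium, 17 of 18 measured, summed to 1333 to 2050 on quiescent and 1271 to 1599 on cycling arrays, and 5 of the 17 passed the filter, among them PECAM1 at 538 ± 203 on quiescent and 294 ± 101 on cycling arrays (SD, n = 4 each). None of the 17 was listed at 0. On each array, ACTB and GAPDH are also read by control probe sets at the 3′ end, the middle and the 5′ end of the transcript, whose log2 ratios track RNA integrity and labelling. For ACTB, 3′ over 5′ came to 2.57 ± 0.18 on quiescent and 2.02 ± 0.20 on cycling arrays (SD, n = 4 each, exact permutation test, two-sided, p = 0.0286 and 0.0381 after adjustment over 4 ratios). With 70 ways to assign the arrays, no lower p can be had. Quiescent arrays were also higher by 0.31 for ACTB 3′ over middle and by 0.16 for GAPDH 3′ over 5′ (exact permutation p = 0.0286 each, adjusted 0.0381), and GAPDH 3′ over middle gave a difference of 0.004 (exact permutation p = 0.914). These ratios move with the same 2 groups as every complex I difference given here, and their part in them was not tested.

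The number of complex I genes called depends on how the arrays are scaled, and no called member turned its direction under the 3 scalings tried. The array medians of log2 intensity were 6.76 ± 0.06 on quiescent and 6.34 ± 0.19 on cycling arrays (SD, n = 4 each, exact permutation p = 0.0286). Centring the arrays on these medians moves every log2 difference by -0.41, and then 31 of 33 subunits and 7 of 8 assembly factors were lower and 0 higher, beside 32.5% of all genes lower and 2.8% higher. Quantile normalization moves the median of all genes by -0.12, and it left 17 subunits and 2 assembly factors lower, beside 16.3% of all genes lower. Under all 3 scalings 19 genes were lower. NDUFB10, NDUFB4 and NDUFAF8 passed in the scaling as deposited and after centring, but not after quantile normalization. Differences below use the scaling as deposited.

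The promoters of complex I genes were read to show what lies before genes that were lower together. RefSeq (GRCh38.p14) gave promoters for 38 of the 41 coding members, and the 250 bases before the gene start were searched on both strands. The letters searched were GCGCATGCG, a core of the palindromic NRF1 site, CCGGAAG for ETS factors such as GABPA, AAGATGGCG for YY1, CCAAT for NF-Y and CACGTG, the E-box that MYC can bind. In the promoters printed no motif overlaps a different one, and the NRF1 core of NDUFB4 stands on both strands, overlapping itself. The sequences shown belong to NDUFS6 and NDUFS1, the largest falls, NDUFS3, the one with a repeated ETS match, NDUFB4, the one with the whole NRF1 site, NDUFAF4, the largest fall of an assembly factor, and NDUFAF7, which did not pass. They run 5′ to 3′ on the gene's strand up to the base before its start, and capitals mark a match.
NDUFS6 (GRCh38.p14, chr5:1801157-1801406, plus strand): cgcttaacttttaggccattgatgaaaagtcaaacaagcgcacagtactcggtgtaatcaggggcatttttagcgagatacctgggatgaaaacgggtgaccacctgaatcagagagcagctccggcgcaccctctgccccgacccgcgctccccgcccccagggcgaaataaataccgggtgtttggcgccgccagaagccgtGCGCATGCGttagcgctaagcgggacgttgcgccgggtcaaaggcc
NDUFS1 (GRCh38.p14, chr2:206159445-206159694, minus strand): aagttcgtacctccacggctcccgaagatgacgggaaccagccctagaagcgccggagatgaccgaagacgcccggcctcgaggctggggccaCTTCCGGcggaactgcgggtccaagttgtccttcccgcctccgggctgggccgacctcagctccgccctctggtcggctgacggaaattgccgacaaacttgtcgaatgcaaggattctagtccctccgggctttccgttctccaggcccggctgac
NDUFS3 (GRCh38.p14, chr11:47578824-47579073, plus strand): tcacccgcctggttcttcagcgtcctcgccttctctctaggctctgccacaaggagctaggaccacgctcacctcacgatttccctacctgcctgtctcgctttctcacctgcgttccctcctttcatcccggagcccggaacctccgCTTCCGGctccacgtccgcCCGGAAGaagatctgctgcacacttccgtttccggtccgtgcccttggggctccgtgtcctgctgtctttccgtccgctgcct
NDUFB4 (GRCh38.p14, chr3:120596086-120596335, plus strand): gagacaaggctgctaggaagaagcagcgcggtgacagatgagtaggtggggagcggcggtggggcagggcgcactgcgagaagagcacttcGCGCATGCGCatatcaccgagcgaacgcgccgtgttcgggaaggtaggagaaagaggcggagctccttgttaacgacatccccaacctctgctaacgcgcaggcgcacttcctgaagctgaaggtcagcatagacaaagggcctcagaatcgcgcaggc
NDUFAF4 (GRCh38.p14, chr6:96897892-96898141, minus strand): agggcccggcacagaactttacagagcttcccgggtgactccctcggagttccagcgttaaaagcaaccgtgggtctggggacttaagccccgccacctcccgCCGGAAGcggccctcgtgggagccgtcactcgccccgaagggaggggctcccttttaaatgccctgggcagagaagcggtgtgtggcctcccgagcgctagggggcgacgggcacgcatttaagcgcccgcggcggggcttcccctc
NDUFAF7 (GRCh38.p14, chr2:37231408-37231657, plus strand): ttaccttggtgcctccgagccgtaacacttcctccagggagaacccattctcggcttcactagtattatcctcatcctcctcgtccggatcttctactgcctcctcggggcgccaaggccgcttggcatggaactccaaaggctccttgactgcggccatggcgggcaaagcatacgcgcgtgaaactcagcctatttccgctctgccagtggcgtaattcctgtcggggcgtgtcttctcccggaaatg

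In these windows NDUFS1 and NDUFAF4 hold 1 ETS match each, beginning 157 and 147 bases before the start, NDUFS6 holds the NRF1 core, beginning 46 bases before the start, and NDUFAF7 holds none of the searched letters. The ETS letters were found in 6 of 38 complex I promoters (15.8%), beside 16.5% of the promoters of genes tested and 8.52% of all promoters. The NRF1 core stood in 3 of 38 (7.89%), those of NDUFS6, NDUFB4 and NDUFS7, beside 3.38% and 1.64% of those same sets. The whole site, the core on both strands, stood in 1 of 38 (2.63%), beside 2.14% and 1.03%. The core was chosen after the counts of the whole site had been seen, and its share is given for description only. CCAAT was found in 8 of 38 (21.1%), beside 35.8% and 32.01%, the E-box in 4 of 38 (10.5%), beside 8.87% and 6.35%, and the YY1 letters in 0 of 38, beside 1.17% and 0.652%. NDUFA9, NDUFA8, NDUFAB1 and NDUFV1, which are not printed, were also called lower and hold none of the searched letters. Of the members called lower 4 of 21 promoters held the ETS letters, and of the members not called 2 of 17, those of NDUFA1 and NDUFB7. These are counts of letters in a fixed window, and they say nothing of binding.

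Of the core subunits, NDUFS1, NDUFS3 and NDUFV1 fell. NDUFS1, the large iron-sulfur subunit of the N module, had intensities of 1364, 1592, 992 and 940.5 in quiescent samples 1 to 4, against 3290.4, 2423, 2769.8 and 2929 in cycling samples 1 to 4. The highest quiescent array stood below the lowest cycling array, and the log2 difference was -1.25 (SE 0.18, limma adjusted p = 0.000306). The quiescent level was thus 42.1% of the cycling level. NDUFS3, a scaffold subunit of the Q module, measured 3755, 2429, 2815 and 3216 on the quiescent arrays and 7186, 4299, 5432 and 5089 on the cycling arrays. The groups did not overlap, with sample 1 the highest and sample 2 the lowest in each (log2 difference -0.84, SE 0.17, limma adjusted p = 0.00311). NDUFV1, which binds NADH and the flavin, had 10258, 5928, 7341 and 6845 in quiescent and 15686, 9984, 13084 and 11541 in cycling cells. Only quiescent sample 1 reached into the cycling range, above cycling sample 2, and the log2 difference was -0.74 (SE 0.17, limma adjusted p = 0.00669).

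NDUFV2 and NDUFS7 did not pass. NDUFV2, the iron-sulfur partner of NDUFV1, had 1372, 966, 1057 and 1288 on quiescent and 1951, 1265, 1561 and 1608 on cycling arrays (log2 difference -0.45, SE 0.17, limma adjusted p = 0.0645). It was called without quiescent sample 1 or without cycling sample 2, with an adjusted p of 0.0265 at the lowest. NDUFS7, which carries the last iron-sulfur cluster before ubiquinone, had 809.9, 419.5, 944 and 1066 in quiescent and 1102, 952, 859 and 1146 in cycling samples. Quiescent sample 2 was far below the rest, and quiescent samples 3 and 4 lay among the cycling arrays (log2 difference -0.40, SE 0.25, limma adjusted p = 0.255).

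**Figure D2:**
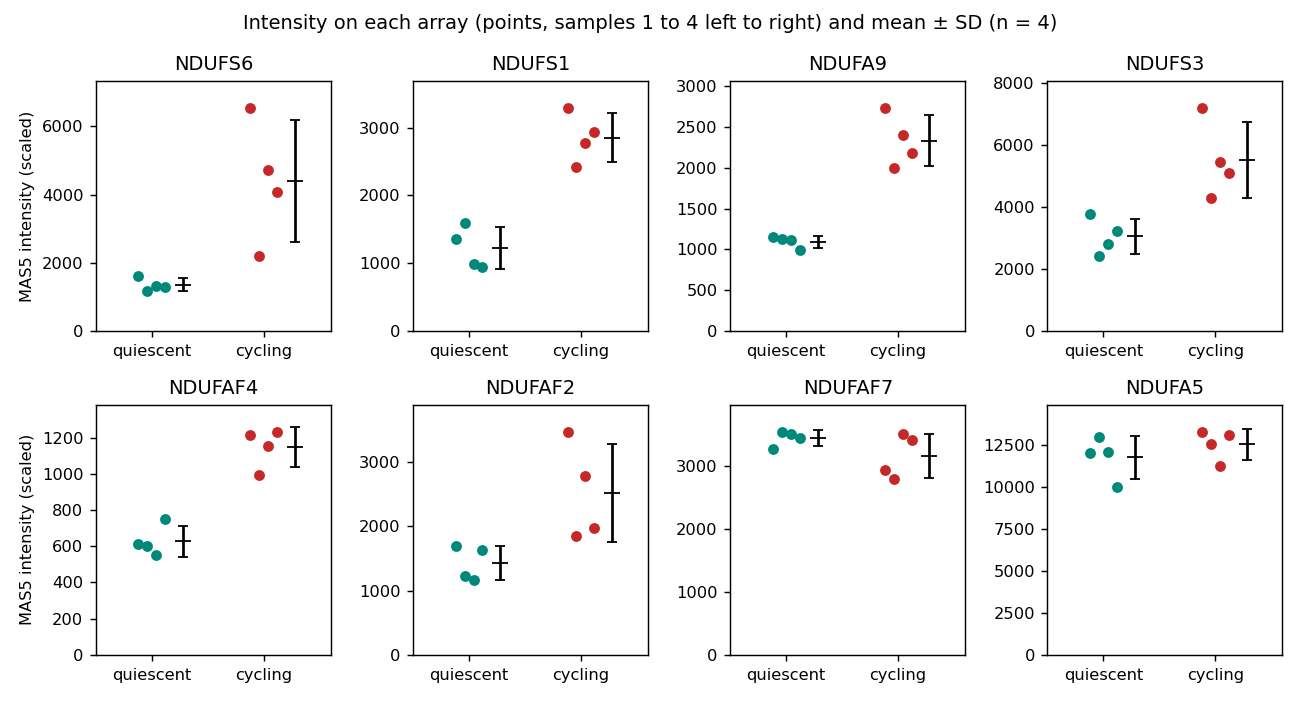
MAS5 intensity (vertical axis, from 0) of 8 complex I genes on each array, with quiescent samples left of cycling samples and mean ± SD (n = 4) as bars. NDUFS6, NDUFS1, NDUFA9, NDUFS3, NDUFAF4 and NDUFAF2 show no overlap between groups, whereas NDUFAF7 and NDUFA5 overlap.

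The accessory subunits held the largest fall of all members. NDUFS6, a zinc-binding subunit that joins with the N module late in assembly, had intensities of 1626, 1191, 1319.6 and 1299 in quiescent and 6540.0, 2215, 4713 and 4081 in cycling samples. Its quiescent arrays were tight (1359 ± 187, SD, n = 4), while its cycling arrays spread widely (4387 ± 1785), with cycling sample 2 nearest to the quiescent level. The log2 difference was -1.60 (SE 0.26, limma adjusted p = 0.000744), a quiescent level of 33.0% of the cycling one. NDUFA9, which sits where the Q module meets the membrane arm, measured 1152, 1123, 1116 and 988 on quiescent and 2732, 2000.5, 2395 and 2185 on cycling arrays. These were the most even values of any called subunit within the quiescent group, and the log2 difference was -1.08 (SE 0.14, limma adjusted p = 0.000133). NDUFB9, a membrane arm subunit that binds the acyl carrier protein, measured 5712, 4466, 4439.5 and 4553 in quiescent and 11459, 7666, 9678 and 10969 in cycling cells, without overlap, and differed by -1.04 on the log2 scale (SE 0.14, limma adjusted p = 0.000229).

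NDUFA8, NDUFAB1 and NDUFB8 complete the 6 lowest accessory subunits, and for each the groups did not overlap. NDUFA8, a cysteine-rich subunit on the outer face of the membrane arm, had 1939.9, 1527, 1768 and 1752 on quiescent against 3789, 2703, 2960.2 and 3278 on cycling arrays (log2 difference -0.86, limma adjusted p = 0.000724). NDUFAB1, the mitochondrial acyl carrier protein, which also serves lipoic acid synthesis, had 4937, 3309, 3693 and 3968 in quiescent against 8855, 5267, 7815 and 6966 in cycling samples (log2 difference -0.85, limma adjusted p = 0.00248). NDUFB8, a single-pass subunit of the membrane arm, had 4889.8, 4162, 4993 and 4057 on quiescent against 8697, 6622, 7321 and 8334 on cycling arrays (log2 difference -0.77, limma adjusted p = 0.000744). A second probe set of NDUFB8 was also lower, by a log2 difference of -0.82 (limma adjusted p over 27307 probe sets 0.00157).

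The other 10 accessory subunits that fell were NDUFA13, NDUFA12, NDUFB2, NDUFA6, NDUFA11, NDUFB10, NDUFB3, NDUFV3, NDUFA10 and NDUFB4, with log2 differences between -0.74 and -0.46. NDUFA13, also known as GRIM-19, overlapped by 1 quiescent array, and the rest did not overlap. NDUFA12, a matrix arm subunit that takes the place of NDUFAF2 late in assembly, averaged 8216 ± 726 on quiescent and 13802 ± 2934 on cycling arrays (SD, n = 4 each, log2 difference -0.73, limma adjusted p = 0.00211). NDUFB10, another cysteine-rich membrane arm subunit, stood at the edge of the threshold (limma adjusted p = 0.0493) and was lost in 6 of the 8 fits that leave out 1 array, those without quiescent sample 2, 3 or 4 or cycling sample 1, 3 or 4. NDUFV3 was not called without cycling sample 4, NDUFA10 without quiescent sample 3 or 4, and NDUFB4 without quiescent sample 4 or cycling sample 1 or 4.

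Another 12 accessory subunits were not called, and 10 of them had a negative log2 difference. NDUFB1 (-0.56, limma adjusted p = 0.0514) and NDUFC1 (-0.55, limma adjusted p = 0.0825) lay nearest to the threshold, and NDUFB11, NDUFB6, NDUFA7, NDUFA1, NDUFB5 and NDUFA2 ran from -0.42 to -0.23. Without quiescent sample 1, which was the highest quiescent array for NDUFB1, NDUFB11, NDUFB6, NDUFA7, NDUFA1 and NDUFB5, all 6 of these were called lower, and the number of subunits called lower was 26. NDUFC1 was called without quiescent sample 4, and NDUFB1 also without cycling sample 2.

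The 4 highest accessory subunits were NDUFS4, NDUFA5, NDUFA3 and NDUFB7, and none passed in the scaling as deposited. NDUFS4, a matrix arm subunit whose loss causes Leigh syndrome, had 1737, 1242, 1335 and 1650.1 in quiescent and 2069, 1540.4, 1968 and 1396 in cycling samples (log2 difference -0.22, SE 0.17, limma adjusted p = 0.35). NDUFA5, of the Q module, measured 12012, 12983, 12081 and 9974 on quiescent and 13291, 12520.1, 11224 and 13058 on cycling arrays. Its groups overlapped broadly (log2 difference -0.09, SE 0.11, limma adjusted p = 0.548), although it was called lower after centring, as was NDUFS4. NDUFA3, a small membrane arm subunit, had 796, 583, 762 and 680.2 in quiescent and 655, 692, 609 and 553 in cycling samples (log2 difference 0.16, SE 0.16, limma adjusted p = 0.479). NDUFB7, a further cysteine-rich subunit on the outer face, had 991, 526, 703 and 759.8 on quiescent and 781, 503, 608 and 647 on cycling arrays (log2 difference 0.21, SE 0.21, limma adjusted p = 0.478). NDUFA3 and NDUFB7 were the subunits with a positive difference, and they were also not called after centring, where they had log2 differences of -0.25 and -0.20.

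Called subunits were found in every part of the enzyme, and 15.4% of all genes tested were called lower. In the N module 6 of 10 fell (median -0.57), led by NDUFS6 and NDUFS1, and all 10 differences were negative. Of the Q module 4 subunits had a probe set of their own and 2 fell, NDUFA9 and NDUFS3 (median -0.62). In the membrane arm 10 of 18 fell (median -0.54), led by NDUFB9 and NDUFA8, and the exceptions with a positive difference, NDUFA3 and NDUFB7, both belong to it. By symbol, 8 of 13 NDUFA (NDUFAB1 included), 6 of 11 NDUFB, 0 of 1 NDUFC, 3 of 5 NDUFS and 2 of 3 NDUFV genes fell.

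Among the assembly factors NDUFAF4, NDUFAF2 and NDUFAF8 fell. NDUFAF4, which acts with NDUFAF3 on the early Q module, had 611, 601, 549 and 748 in quiescent and 1214, 992, 1151 and 1233 in cycling samples. No arrays overlapped, and the log2 difference was -0.88 (SE 0.15, limma adjusted p = 0.00117), a quiescent level of 54.5% of the cycling one. NDUFAF2, a relative of the subunit NDUFA12 that binds in its place during assembly, had 1694, 1224, 1169 and 1623 on quiescent and 3470.1, 1851, 2786 and 1969 on cycling arrays. Cycling samples 2 and 4 stood close above the quiescent ones (log2 difference -0.79, SE 0.21, limma adjusted p = 0.0124). NDUFAF8, which stabilises NDUFAF5, had 1725, 1582, 1082 and 1497 in quiescent and 3216, 1432, 2794 and 2227 in cycling samples. Cycling sample 2 lay inside the quiescent range, and the call (log2 difference -0.67, SE 0.23, limma adjusted p = 0.0437) was lost in 6 of 8 fits that leave out 1 array, namely those without quiescent sample 2, 3 or 4 or cycling sample 1, 3 or 4.

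The other 5 assembly factors did not pass. NDUFAF1, which belongs to the membrane assembly complex with ECSIT and ACAD9, measured 3623, 3076, 2853 and 3337 on quiescent and 3892, 4087, 4545 and 3518 on cycling arrays (log2 difference -0.32, SE 0.13, limma adjusted p = 0.0829). NDUFAF6, which is needed early in the making of the membrane core, measured 1322, 1505, 1417 and 1484 in quiescent and 1507, 1740.4, 1674 and 2208 in cycling samples. Its groups did not overlap, yet the difference was small (-0.30, SE 0.14, limma adjusted p = 0.131). NDUFAF5, which modifies NDUFS7, had 1178, 972, 1077 and 1044 on quiescent and 1387, 1021, 1595 and 1143 on cycling arrays (log2 difference -0.25, SE 0.16, limma adjusted p = 0.263). NDUFAF3, the partner of NDUFAF4, had 1038, 696, 991 and 855 in quiescent and 1201, 1008, 1031 and 940.5 in cycling samples (log2 difference -0.23, SE 0.16, limma adjusted p = 0.302). For both the groups overlapped. NDUFAF7, a methyltransferase needed for complex I assembly, was the assembly factor with a positive difference, with 3269, 3552, 3519 and 3446 on quiescent and 2945, 2802, 3509.7 and 3421 on cycling arrays (log2 difference 0.13, SE 0.12, limma adjusted p = 0.46). It differed by -0.29 after centring and was not called there either, whereas the other 7 assembly factors were then called lower.

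Subunits and assembly factors were set side by side on each array, as the mean log2 intensity of their genes minus the mean of all genes tested. Core subunits stood at 1.57, 1.05, 1.30 and 1.38 in quiescent samples 1 to 4 and at 2.42, 1.76, 2.10 and 2.11 in cycling samples 1 to 4. Accessory subunits stood at 2.00, 1.52, 1.76 and 1.79 on the quiescent arrays and 2.67, 2.06, 2.39 and 2.33 on the cycling arrays. In both groups sample 1 was the highest array and sample 2 the lowest, and quiescent and cycling arrays did not overlap. For assembly factors the values were 1.03, 0.87, 0.85 and 1.02 in quiescent and 1.57, 1.09, 1.57 and 1.35 in cycling samples, again without overlap. The difference in mean level was -0.78 for core subunits, -0.59 for accessory subunits and -0.46 for assembly factors. The gap between subunits and assembly factors was 0.76 ± 0.14 on quiescent and 0.92 ± 0.12 on cycling arrays (SD, n = 4 each, log2), and these values overlapped. The medians of -0.55 and -0.31 are a description, and their difference was not tested.

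**Figure D3:**
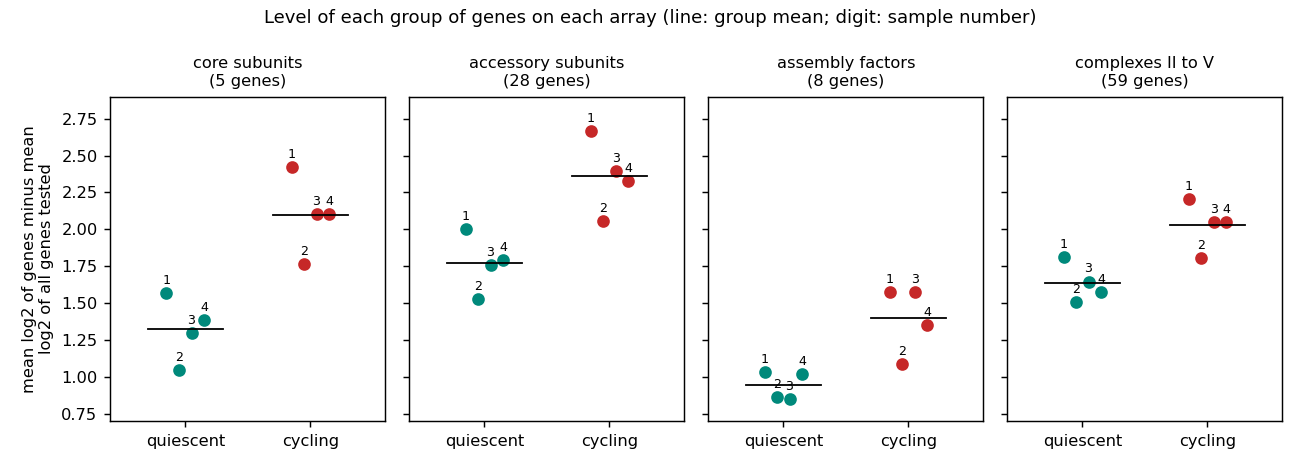
Mean log2 intensity of 4 groups of respiratory genes minus the mean of all genes tested (vertical axis), 1 point per array with its sample number, quiescent left of cycling. Core subunits, accessory subunits and assembly factors show no overlap between quiescent and cycling arrays, and in complexes II to V quiescent sample 1 reaches just above cycling sample 2.

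None of the 3 noncoding RNAs named after subunit genes passed. NDUFV1-DT, a divergent transcript, averaged 294 ± 65.1 on quiescent and 217 ± 48 on cycling arrays (SD, n = 4 each, log2 difference 0.43, limma adjusted p = 0.202). NDUFV2-AS1 averaged 218 ± 53.8 on quiescent and 165 ± 54.3 on cycling arrays (0.43, limma adjusted p = 0.318), and NDUFB2-AS1 averaged 201 ± 45.6 on quiescent and 185 ± 32.5 on cycling arrays (0.11, limma adjusted p = 0.781). All 3 are dim, none passed after centring or quantile normalization either, and their difference from the subunits was not tested. A second, dimmer probe set of NDUFV2-AS1 had a log2 difference of 0.97 and was not called (limma adjusted p over 27307 probe sets 0.0601). On it all quiescent arrays lay above all cycling arrays.

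Many members have further probe sets, and most of the dimmer ones were not called. Of 69 probe sets of members that passed the filter, 24 were dimmer probe sets of coding genes. Of these 24, 2 were called lower (NDUFB8 and NDUFB10), 0 were called higher and 11 had a positive log2 difference, with a median of -0.09, beside -0.52 for the brightest probe sets. The 4 dimmer probe sets of NDUFS1 that passed, for example, had log2 differences of -0.22, 0.31, 0.23 and 0.19 and were not called, against -1.25 for the brightest. A second probe set of NDUFAF4 stood at -0.37 and was not called. Brightness moved with the calls over all genes as well, and its part in the members' calls was not tested. Among genes with a mean intensity under 200, 1.16% were called lower and the median log2 difference was 0.32. From 200 to 1000 it was 11.6% with a median of 0.11, where 1 of 6 coding members was lower with a median of -0.31. From 1000 to 4000 it was 24.7% with a median of -0.06, where 15 of 23 coding members were lower with a median of -0.52. At 4000 and more it was 28.5% with a median of -0.10, where 6 of 12 coding members were lower with a median of -0.64.

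**Figure D4:**
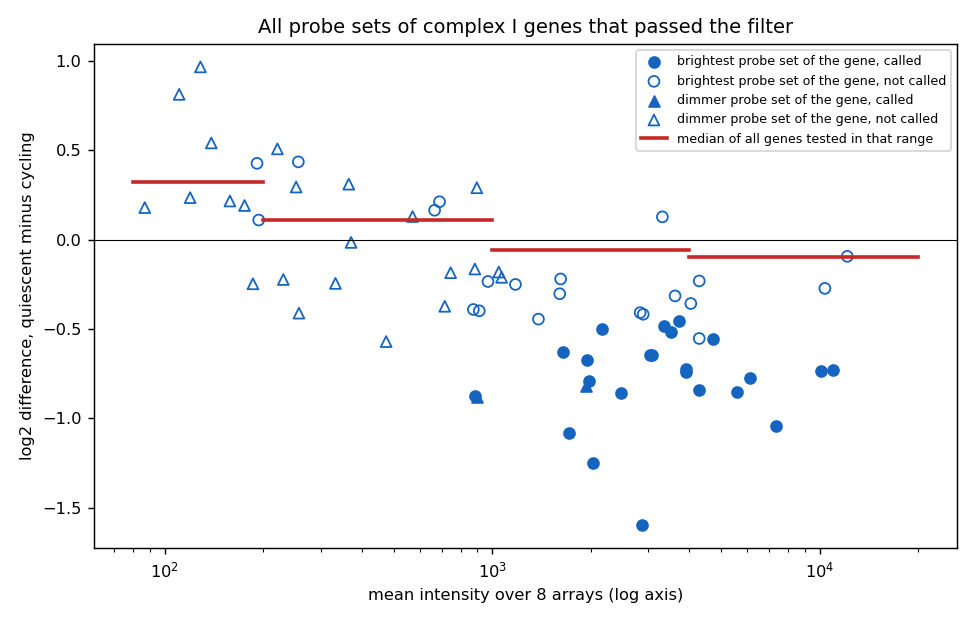
Log2 difference (quiescent minus cycling) against mean intensity over 8 arrays (log axis) for the 69 probe sets of members that passed the filter. Circles are the brightest probe set of a gene and triangles the dimmer ones, filled where called among 27307 probe sets, and red bars are the medians of all genes tested in each intensity range. No called probe set lies under an intensity of 200, and 9 of the 10 probe sets under an intensity of 200 lie above 0. Over probe sets, 23 of the 41 brightest coding probe sets were called. Among them is that of NDUFB1 (limma adjusted p = 0.0499), which was not called over genes.

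Genes around complex I were counted from lists chosen with earlier results known. Of 14 further complex I assembly factors not named NDUFAF, 8 fell and 1 rose, beside 15.4% and 12.2% of all genes tested. SFXN4, a sideroflexin needed for complex I assembly, fell the most, with 1224, 1034, 638 and 709.7 in quiescent and 2716, 2179.5, 2612 and 2691 in cycling samples (log2 difference -1.55, limma adjusted p = 0.000143). COA1, which acts in complex I and complex IV assembly, rose, with 7432, 7143, 8617 and 8153 on quiescent and 6128, 5205, 5821 and 5199 on cycling arrays (log2 difference 0.49, limma adjusted p = 0.00588). After centring COA1 was not called (limma adjusted p = 0.780). Both genes' groups did not overlap. Of the subunits encoded by mitochondrial DNA, 3 had a probe set of their own and none passed. ND2 averaged 21781 ± 3385 on quiescent and 25549 ± 1612 on cycling arrays (-0.24, limma adjusted p = 0.132). ND4 averaged 55346 ± 3735 on quiescent and 48304 ± 1471 on cycling arrays (0.19, limma adjusted p = 0.0665), and ND6 had a log2 difference of -0.11 (limma adjusted p = 0.812). For ND4 the quiescent arrays all lay above the cycling arrays, it was called higher without quiescent sample 2, and ND2 was called lower after centring (limma adjusted p = 0.00295).

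The neighbours COXFA4 and COXFA4L2, formerly NDUFA4 and NDUFA4L2, had differences of opposite sign. COXFA4, now counted as a complex IV subunit, had 7504, 5777, 6674 and 7113 in quiescent and 12817, 9604, 10426 and 11148 in cycling samples, without overlap (log2 difference -0.70, SE 0.12, limma adjusted p = 0.00117). COXFA4L2, its hypoxia-induced relative, was dim, with 162, 207, 249 and 244 on quiescent and 62, 208, 141 and 134 on cycling arrays (log2 difference 0.76, SE 0.35, limma adjusted p = 0.126). It was called higher without cycling sample 2. The difference between these 2 genes was not tested.

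Genes of the other respiratory complexes, with the assembly factors their lists hold, were counted in the same way. Over all genes tested, 15.4% were called lower and 12.2% higher. At mean intensities of 1000 to 4000 and of 4000 and more, 24.7% and 28.5% of all genes were called lower. In complex II 2 of 6 tested genes fell (median -0.26), in complex III 5 of 13 (-0.40), in complex IV 9 of 22 with 1 higher (-0.32) and in complex V 10 of 18 with 1 higher (-0.44). Together that is 26 of 59 genes lower and 2 higher with a median of -0.37, beside 22 of the 41 coding complex I members, subunits and assembly factors together. The difference between these counts was not tested. TMEM70 is counted as lower both in complex V and among the further complex I assembly factors. It was called in 1 of 8 fits that leave out 1 array, and not after quantile normalization (limma adjusted p = 0.0718). ATP5MC1, of the ATP synthase ring, fell by 1.57 on the log2 scale, SCO1, a copper carrier for complex IV, by 1.23, UQCRQ of complex III by 0.97 and SDHA of complex II by 0.54. The smallest called falls in complexes II and III were those of SDHD (-0.37) and UQCR10 (-0.46). SDHD was not called after quantile normalization (limma adjusted p = 0.122), which leaves 1 of 6 in complex II, nor without quiescent sample 3 or 4 or cycling sample 4. SDHA was not called without cycling sample 3. COX17, another copper carrier, rose, with 596 ± 89.6 on quiescent and 249 ± 93.1 on cycling arrays (SD, n = 4 each, limma adjusted p = 0.0021). ATP5MF, a small subunit of ATP synthase, rose too, with 468 ± 34.9 on quiescent and 199 ± 21.4 on cycling arrays (limma adjusted p = 0.000399). These 2 probe sets are dim, and their groups did not overlap. Each is the only probe set listed for its gene alone, and how well it reads the gene's transcripts was not tested.

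The counts that follow stand beside 15.4% of all genes tested called lower and 12.2% called higher. At mean intensities of 1000 to 4000 and of 4000 and more, 24.7% and 28.5% were called lower. Of 14 iron-sulfur cluster assembly genes tested, 7 fell and 0 rose, from BOLA3 (log2 difference -1.62, limma adjusted p = 0.00355) to ISCA2 (-0.42). ISCA2 was not called without sample 3 or 4 of either group. Of 10 genes listed as other routes of electrons to ubiquinone, 6 fell and 0 rose. That list also holds CHCHD4, AIFM1 and NNT, which are not such routes. Of the routes themselves, ETFA (-0.86), ETFB (-0.72) and DHODH (-0.69) fell. SQOR, AIFM2, ETFDH and PRODH ran from -0.11 to 0.06 and were not called. DHODH was not called without quiescent sample 3 or 4 or cycling sample 1, 3 or 4, nor ETFB without cycling sample 3. CHCHD4, which oxidises the cysteine-rich subunits on import, fell by 1.11 and its partner AIFM1 by 1.02, and NNT, the mitochondrial transhydrogenase, by 0.64, a call lost without quiescent sample 3 or 4. Of 13 regulators of mitochondrial gene expression, 5 fell and 0 rose, among them TFAM, which packages mitochondrial DNA (-0.86, limma adjusted p = 0.000406), and TFB1M (-0.44), a methyltransferase of mitochondrial ribosomal RNA. TFB1M was not called without sample 3 or 4 of either group. In the short list of respiration genes linked to hypoxia, 2 of 6 tested fell, HIGD1A and LONP1, and 2 rose, MXI1 and BNIP3L, with log2 differences of -1.05 and 0.97 at the ends. After centring BNIP3L was not called (limma adjusted p = 0.207). LONP1 (limma adjusted p = 0.0478) was not called after quantile normalization (limma adjusted p = 0.0951), nor in 6 of 8 fits that leave out 1 array, those without quiescent sample 2, 3 or 4 or cycling sample 1, 3 or 4.

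**Figure D5:**
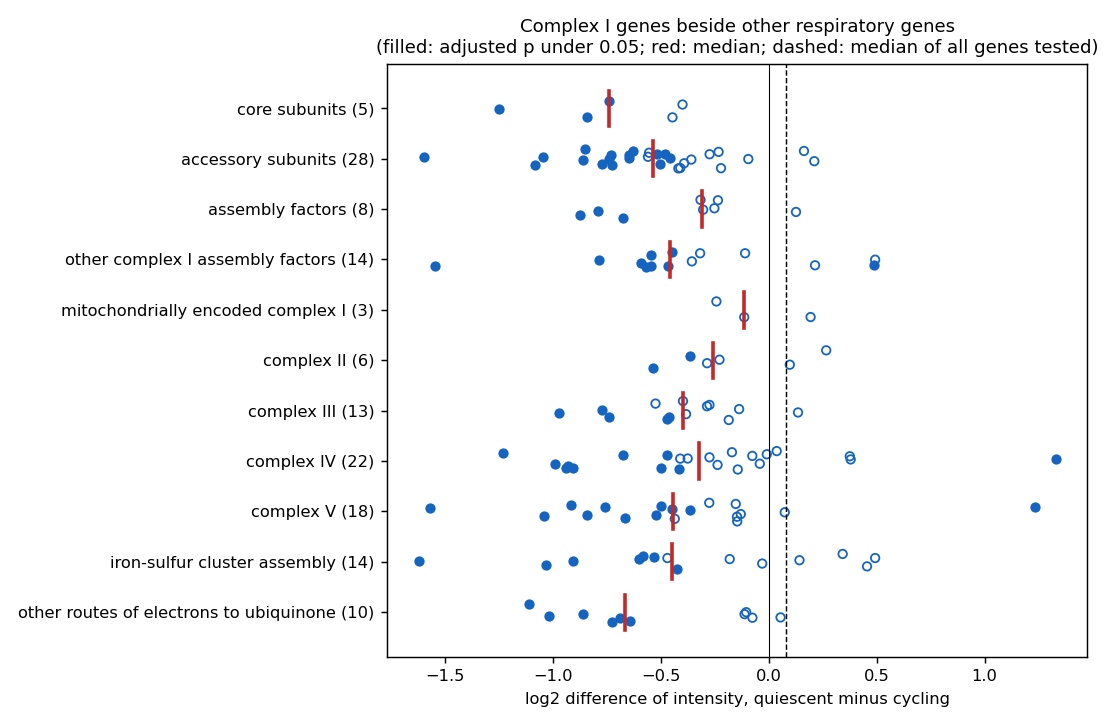
Log2 difference (quiescent minus cycling, horizontal axis) of each tested gene in the complex I groups and the other respiratory lists, with the number of genes in brackets, filled where called, and the median of each list in red. The medians of core subunits, accessory subunits and assembly factors were -0.74, -0.54 and -0.31. Those of complexes II to V, whose lists hold subunits and assembly factors together, ran from -0.44 to -0.26. The list of other routes of electrons to ubiquinone also holds CHCHD4, AIFM1 and NNT, which are not such routes. Its median of -0.67 is therefore not that of the routes alone. Differences between lists were not tested. The dashed line marks the median of all genes tested.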

How the data were processed

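RNA was measured on 8 arrays of 1 cell line, 4 per group, grouped and numbered by the sample titles. Per the labels' protocols, Trizol-extracted RNA was amplified and biotin-labelled by the one-cycle protocol. The deposited values are linear intensities from MAS5, per the submitters' processing notes, with a version not given in the sources used. From the values, the authors had scaled each array to a trimmed mean of 500.1 (2% trimmed at each end), so levels are relative to the array, not per cell. The number of arrays limits the precision.

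Members and gene lists were chosen with earlier results of these data known. The platform annotation lists 41091 probe sets with 1 gene symbol, 1801 with several and 11777 of 54675 are unlisted; 41037 matched current RefSeq gene names by Entrez ID. The brightest probe set stood for a gene. Intensities under 1 were set to 1, log2 was taken, and 8097 genes with a mean below that of the median probe set were left out. The remaining 11678 were fitted with limma 3.58.1 (lmFit, eBayes with trend and robust, R 4.3.3), quiescent minus cycling, two-sided, with Benjamini-Hochberg adjustment and a threshold of 0.05. The scaling as deposited was kept, because the table is already normalized. The scripts were tested on simulated data. Python 3.11.15 with pandas 2.3.3, numpy 2.4.6 and matplotlib 3.10.9 made tables and figures.

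Named with values on every array are core subunits, NDUFAF factors, COXFA4 and COXFA4L2, the 6 lowest and 4 highest accessory subunits, SFXN4 and COA1. From each other list the called genes with the lowest and highest difference are named with a log2 difference or group means. AIFM1, ETFA, ETFB, ETFDH, DHODH, SQOR, AIFM2, PRODH, TMEM70, LONP1, BNIP3L and the noncoding RNAs were named after their values were seen. Alternatives were centring on array medians, quantile normalization, 32 added before log2, no filter, a filter at the 75th percentile, the mean of all probe sets, eBayes without trend and robust, a replicate block, and leaving out each array. In the promoter search the NRF1 core was chosen after the counts of the whole site were seen.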

Additional observations from a re-analysis of the deposited data

Results flagged for a closer look

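In 4 groups of 4 arrays, of 102 examined, 1 array stood far from the others, by a gap to the nearest array that exceeds Dixon's critical value as a share of the group's range. Chance gives such a gap in about 1 in 20 groups. In each case it was sample 1 and it was the highest. NDUFA7, an accessory subunit of the N module, measured 944 in quiescent sample 1 and 683 to 705 in the other quiescent samples, a gap of 0.903 of the range. It also measured 1181 in cycling sample 1 and 906 to 945 in the other cycling samples, a gap of 0.842. NDUFB5, a membrane arm subunit, measured 12621 in quiescent sample 1 and 8156 to 8516 in the others, a gap of 0.901. NDUFB9 measured 5712 in quiescent sample 1 and 4439.5 to 4553 in the others, a gap of 0.900. Without quiescent sample 1, NDUFA7 and NDUFB5 were called lower in quiescent cells, with limma adjusted p of 0.0315 and 0.0218, and NDUFB9 was called in every fit that leaves out 1 array.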

How the results depend on the processing

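Centring the arrays on their medians gave 3795 genes lower and 327 higher in quiescent cells (1802 and 1430 as deposited), 31 subunits lower and 7 assembly factors lower. It shifts all differences by the same amount. The mean of all probe sets of a gene gave 12 subunits lower and 1 higher, and turned NDUFA5 (log2 difference 0.59, limma adjusted p = 0.0194) and NDUFB4 (0.18, limma adjusted p = 0.679). NDUFA2 (0.35, limma adjusted p = 0.370) and NDUFB6 (0.46, limma adjusted p = 0.112), not called in either setting, also changed sign; the cause was not tested. Quantile normalization moved the subunit median relative to all genes to -0.41, against -0.63. Leaving out 1 array in turn gave 1419 to 1900 genes lower and 945 to 1697 higher, the fewest higher without quiescent sample 3, with 16 to 26 subunits and 2 to 3 assembly factors lower and none of these members higher. The subunit median relative to all genes then ran from -0.75 to -0.52 and that of assembly factors from -0.45 to -0.36. Of the 22 genes called lower, 17 were called in all 8 of these fits.

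Same-numbered quiescent and cycling samples correlated in their deviations from the group means at 0.344, 0.196, 0.110 and 0.036, and quiescent and cycling sample 4 each correlated best with sample 3 of the other group (0.044 and 0.138). Since not every same-numbered pair exceeded 0.1 and the labels do not tie the numbers to a culture or sort, the numbers were not taken as pairs, although 3 of the 4 pairs exceed it. With the number as a replicate block NDUFB1, NDUFC1, NDUFB11, NDUFB6, NDUFA7, NDUFA1, NDUFB5 and NDUFV2 were called too, with limma adjusted p from 0.00201 to 0.0334. In all, 27 subunits and 3 assembly factors were lower, and 2232 of all genes lower and 2002 higher. The deposited values carry no detection calls, so dim probe sets cannot be told from background.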
